A study of Mus musculus with 2 samples.

Results

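The 35 genes described here encode ligands of the fibroblast growth factor (FGF) family, their receptors and adaptors, and genes known to respond to FGF signalling or to restrain it. Single-cell RNA-seq of the cranial neural crest lineage, sorted from mouse heads at E11.5, counted 32285 genes, and the 35 were taken from these by symbol, each of which matched 1 gene. The set held 12 ligands, 4 intracellular FGF homologous factors, 5 receptors, 2 adaptors, 9 feedback genes and 3 ETS transcription factor genes. All embryos carried the Wnt1CRE driver and 2 copies of the r26 mTmG reporter, so that recombined cells express eGFP and could be sorted. Control embryos had 1 wild-type and 1 floxed copy of Tfap2a and of Tfap2b, and mutant embryos had 2 floxed copies of each, so both groups had lost at least 1 copy of these transcription factor genes in Cre-positive cells. Cells of 2 embryos were pooled into 1 library per group, and therefore no difference below has a replicate check. Wnt1CRE also acts in the dorsal midbrain and hindbrain, and neural progenitors and neurons were sorted with the crest.

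FGF ligands are secreted and bind receptor tyrosine kinases on the cell surface, which recruit the adaptor FRS2 and switch on the RAS-ERK cascade. Cells with an active cascade raise transcripts of the ETS factors Etv4 and Etv5 and of inhibitors such as Spry and Spred genes, Dusp6 and Il17rd, and these transcripts are widely read as a sign of FGF response. In the face, ligands made by the epithelium act on crest mesenchyme. At the isthmus, the boundary between midbrain and hindbrain, Fgf8, Fgf17 and Fgf18 are made by the neural tissue itself and pattern both sides.

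After filtering, 5625 control cells with 82313680 UMIs and 5587 mutant cells with 77251738 UMIs remained. A UMI marks 1 captured transcript molecule, and levels are UMIs summed over the cells of a class and scaled to 1000000 UMIs (CPM). Mesenchyme made up 66.0% of control and 48.8% of mutant cells, brain progenitors 13.2% and 21.5%, neurons 13.6% and 22.4%, and glia 4.66% and 3.62%. The 347 other barcodes, 140 control and 207 mutant, carried markers of more than 1 class and were set aside, and Scrublet called 68 and 123 of them doublets. All 12 mesenchyme markers and all 10 glia markers were highest in their own class in both libraries, as were 10 and 9 of 13 progenitor markers and 9 and 10 of 11 neuron markers. Tfap2a was at 19.3 CPM in control and 13.7 CPM in mutant mesenchyme and was still detected. Counts of 3′ ends do not tell an intact floxed allele from a recombined one, and the source of these UMIs was not tested. In glia Tfap2a was higher in the library labelled mutant, at 118 CPM against 78.3 CPM, whereas in neurons it was lower, at 43.7 against 55.0 CPM. Tfap2b was lower in the mutant library in all 4 classes. It was at 56.1 control and 46.9 mutant CPM in mesenchyme, 287 and 217 CPM in neurons and 234 and 193 CPM in glia. In progenitors it was at 4.79 and 3.91 CPM, with an interval of the ratio that held 0. Control cells carried Xist and mutant cells Y-linked transcripts, so that genotype and sex cannot be told apart. The libraries shared 6 barcode sequences.

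The 35 genes together took a like part of both libraries, 522 CPM in control and 527 CPM in mutant. A member was compared within a class where it had at least 100 UMIs over both libraries, which 30 members reached in at least 1 class and 7 in all 4. Fgf20 had no UMI in any kept cell. Fgf1, Fgf3, Fgf5 and Fgfr4 stayed below the limit in every class, with 31, 103, 50 and 53 UMIs over all kept cells of both libraries. Brackets hold 95% intervals, which cover the error of counting alone, and a difference is called here when it reached 1.5-fold.

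**Figure D1:**
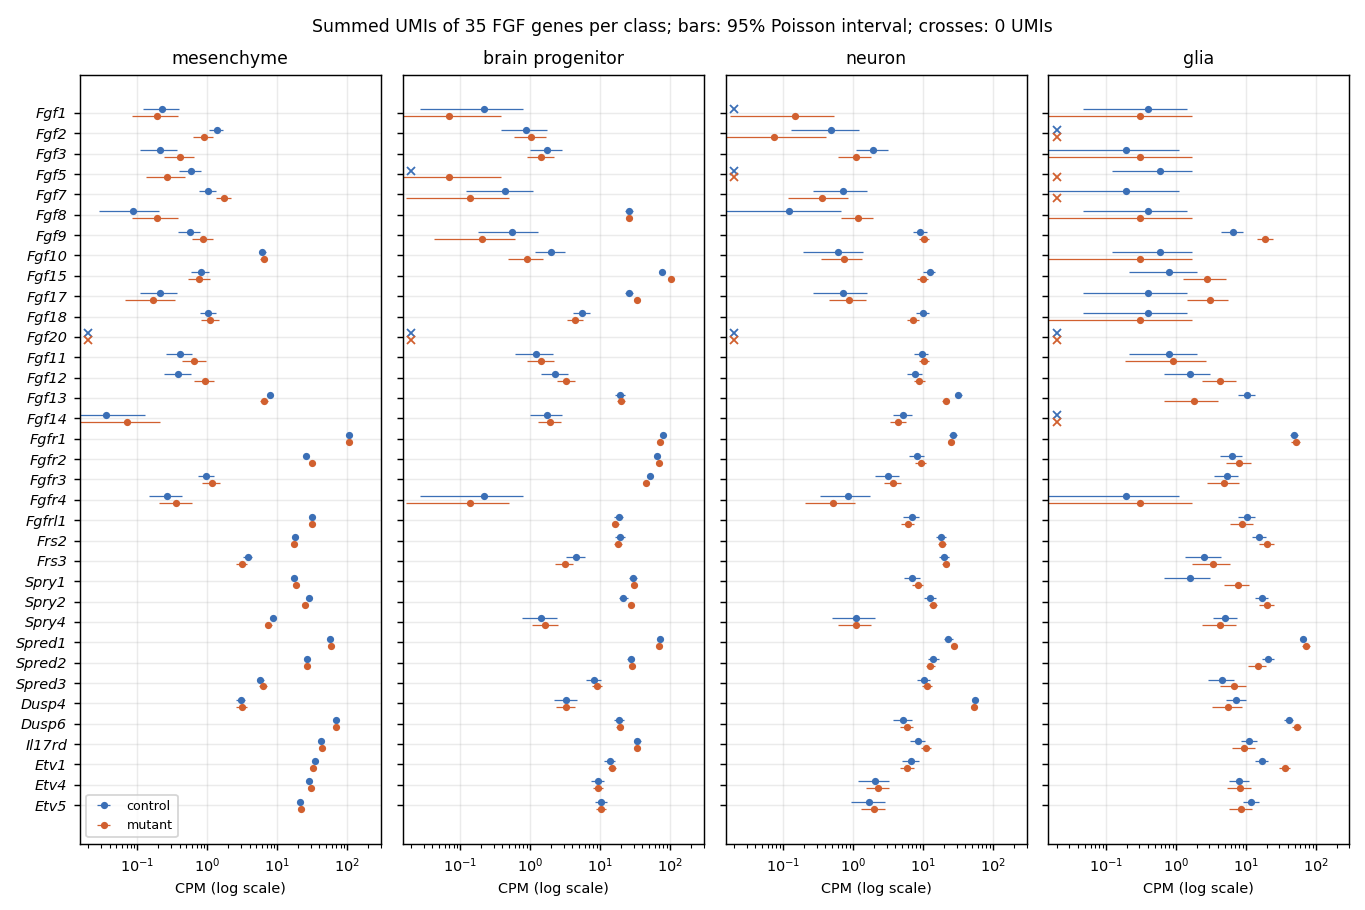
Level of each of the 35 FGF genes in CPM, on a log axis, in the 4 classes of cells (control blue, mutant orange; points are UMIs summed over the cells of 1 library, bars the 95% Poisson interval, crosses 0 UMIs). Fgf8, Fgf15 and Fgf17 stood high in brain progenitors, whereas Dusp6, Il17rd, Etv4 and Etv5 stood highest in mesenchyme.

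Ligand transcripts were scarce in the mesenchyme and abundant in the brain progenitors. The 12 ligands summed to 12.2 CPM in control and 12.9 CPM in mutant mesenchyme, compared with 138 and 169 CPM in brain progenitors, 35.9 and 31.8 CPM in neurons, and 10.3 and 26.1 CPM in glia. The leading ligand of the mesenchyme was Fgf10, which signals to epithelium through FGFR2, with 350 UMIs or 6.13 CPM in control and 265 UMIs or 6.35 CPM in mutant cells. These levels lay within counting error of each other, with a log2 ratio of mutant over control of 0.05 (-0.18 to 0.29). Fgf7, also a ligand for epithelial FGFR2, was at 1.02 and 1.70 CPM, a log2 ratio of 0.75 (0.22 to 1.27), and Fgf2 was at 1.35 and 0.887 CPM, a ratio of -0.60 (-1.21 to -0.02). Fgf2 overlaps an antisense gene, and with no stated strand setting its counts are uncertain. Fgf18 had 59 and 46 UMIs, with a log2 ratio of 0.09 (-0.49 to 0.68). The other ligands of the mesenchyme, Fgf1, Fgf3, Fgf5, Fgf8, Fgf9, Fgf15 and Fgf17, had between 5 and 46 UMIs in each library.

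In brain progenitors, Fgf15 was the leading ligand with 691 control and 1472 mutant UMIs, or 75.2 and 101 CPM. It was higher in the mutant library by 0.43 (0.29 to 0.56) on the log2 scale. Fgf17 was at 25.6 and 33.6 CPM, a log2 ratio of 0.40 (0.17 to 0.63), whereas Fgf8, its close relative, was at 25.7 and 26.1 CPM, a ratio of 0.02 (-0.22 to 0.26). Fgf18 had 50 and 64 UMIs and a ratio of -0.31 (-0.87 to 0.25). Neurons held Fgf9, Fgf15 and Fgf18 at like levels. Their Fgf9 was at 9.12 and 10.3 CPM, a log2 ratio of 0.17 (-0.24 to 0.59). Their Fgf15 was at 12.4 and 9.83 CPM, a ratio of -0.33 (-0.71 to 0.05), and their Fgf18 at 9.84 and 7.28 CPM, a ratio of -0.43 (-0.87 to 0.01). Glia also carried Fgf9, with 33 control and 62 mutant UMIs (6.44 and 18.8 CPM). The difference there was 1.55 (0.91 to 2.20) on the log2 scale, below the UMI limit for a call.

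The 4 homologous factors resemble FGFs but stay inside the cell and bind sodium channels. Neurons expressed all 4, with Fgf13 leading at 32.0 CPM in control and 21.1 CPM in mutant cells (267 and 289 UMIs), a log2 ratio of -0.61 (-0.85 to -0.36). With equal weight per cell this ratio was -0.35, in thinned cells -0.31 and with cluster shares held equal -0.45, all below 1.5-fold, whereas in cells with under 5% mitochondrial UMIs it was -0.98. Fgf13 (X chromosome, 59062145 to 59568071, GRCm38) was also lower in mutant mesenchyme, at 6.45 against 7.76 CPM, a ratio of -0.27 (-0.49 to -0.04). In glia it had 53 control UMIs and 6 mutant UMIs. After thinning each cell to 5000 UMIs, it was found in 5.38% of control glia and in 0 of 201 mutant glia. At that depth a count of 0 allows a share of cells with a UMI of up to 1.49% by the floor of 3 counts, or 1.82% by the exact interval. The shares without thinning were 14.5% in control and 2.97% in mutant glia. Brain progenitors did not show this difference, with 19.3 and 19.8 CPM. The remaining factors of neurons, Fgf11, Fgf12 and Fgf14, lay between 4.44 and 10.4 CPM, and all their log2 ratios, 0.14, 0.22 and -0.22, had intervals that held 0.

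Receptor usage separated mesenchyme from brain. Fgfr1 was the leading receptor of both, with 106 control and 107 mutant CPM in mesenchyme and 79.1 and 71.7 CPM in progenitors, where its log2 ratio was -0.14 (-0.28 to -0.0030). Its log2 ratio in mesenchyme was 0.02 (-0.04 to 0.07), from 6066 and 4477 UMIs. Fgfr2 was at 25.8 and 31.2 CPM in mesenchyme and at 64.9 and 69.2 CPM in progenitors. Its mesenchymal ratio of 0.27 (0.17 to 0.38) was below 1.5-fold, and its interval left out 0. Fgfr3, a receptor of neuroepithelium, was at 51.4 and 45.5 CPM in progenitors but at 0.963 and 1.15 CPM in mesenchyme. Fgfrl1, which lacks a kinase domain, was at 31.4 and 30.8 CPM in mesenchyme and at 18.4 and 16.5 CPM in progenitors. In neurons Fgfr1, Fgfr2 and Fgfrl1 lay between 6.05 and 27.0 CPM, with ratios of -0.12, 0.18 and -0.18 whose intervals held 0. In glia Fgfr1 alone passed the UMI limit, with 48.4 and 51.6 CPM. The adaptor Frs2 was even across classes, between 15.2 and 20 CPM in all 8 class and library sums. Its relative Frs3 was highest in neurons, with 19.8 control and 21.0 mutant CPM, against 3.75 and 3.09 CPM in mesenchyme.

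The feedback genes divided by class. Dusp6, Il17rd, Spry4, Etv4 and Etv5 were highest in mesenchyme in both libraries, Spry1 in progenitors, and Spred3 and Dusp4 in neurons. Summed over Spry1, Spry2, Spry4, Dusp6, Il17rd, Etv4 and Etv5, called the 7 readouts below, the level was 215 CPM in both control and mutant mesenchyme. It was 124 and 132 CPM in progenitors, 37.8 and 44.7 CPM in neurons, and 95.1 and 111 CPM in glia. Dusp6 (chromosome 10, 99263231 to 99267489), a phosphatase that switches off ERK, had 3898 control and 2875 mutant UMIs in mesenchyme, or 68.3 and 68.9 CPM. Its log2 ratio was 0.01 (-0.06 to 0.08). Il17rd, a membrane inhibitor of the pathway, was at 42.3 and 43.2 CPM, with a ratio of 0.03 (-0.06 to 0.12). Spry1 was at 17.5 and 18.2 CPM, whereas Spry2 and Spry4, from the same inhibitor family, were slightly lower in the mutant library, with ratios of -0.18 (-0.30 to -0.07) and -0.23 (-0.44 to -0.03). Of the related SPRED inhibitors in mesenchyme, Spred1 was highest at 56.7 and 57.9 CPM, followed by Spred2 at 26.2 and 26.6 CPM and Spred3 at 5.73 and 6.23 CPM, and their ratios lay between 0.02 and 0.12. Etv4 (chromosome 11, 101769742 to 101785371) was at 28.7 and 30.3 CPM, Etv5 at 21.3 and 21.9 CPM, and Etv1, an ETS factor also used in neurons, at 34.8 and 31.8 CPM with a ratio of -0.13 (-0.23 to -0.03).

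Among neurons, Dusp4, a phosphatase of the same family, took the place of Dusp6: it was at 55.7 control and 53.7 mutant CPM, against 5.16 and 5.83 CPM for Dusp6. In mesenchyme Dusp4 was at 2.98 and 3.12 CPM, and after thinning its share of positive cells was 19.2% and 20.6% in control and mutant neurons against 1.34% and 1.38% in mesenchyme (33.9% and 34.7% against 4.44% and 4.51% without thinning). Median depths before thinning were 9575 and 9595 UMIs in neurons and 14444 and 14280.5 UMIs in mesenchyme, so the class with the higher share was the shallower one. The remaining neuronal feedback genes with enough UMIs, Spry1, Spry2, Spred1, Spred2, Spred3 and Il17rd, lay between 6.96 and 27.2 CPM. Spred1 was the only one of them whose interval left out 0, with a log2 ratio of 0.26 (0.0011 to 0.52). In progenitors, Spry2 was at 21.4 control and 27.5 mutant CPM, a ratio of 0.36 (0.11 to 0.61). The other progenitor feedback genes with 100 UMIs had ratios between -0.05 and 0.16, among them Spry1 at 29.4 and 30.7 CPM and Dusp6 at 18.6 and 18.9 CPM. Etv1, Etv4 and Etv5 were at 13.8 and 14.7, 9.25 and 9.27, and 10.3 and 10.3 CPM.

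The call rule found few members. In mesenchyme, 1 of 23 members, Fgf7, was 1.5-fold or more higher in the mutant library, and 1, Fgf2, was lower, against 2.62% and 1.02% of the 12432 genes compared. In cells thinned to 5000 UMIs and in cells with under 5% mitochondrial UMIs, which leave fewer UMIs, no mesenchymal member was called, with ratios of 0.51 and 0.55 for Fgf7 and of -0.0049 and -0.89 for Fgf2. In brain progenitors, 0 of 20 members were called in either direction, against 131 higher (about 1.3%) and 95 lower (0.908%) of 10460 genes. In neurons, 0 of 21 were higher and 1, Fgf13, was lower, against 1.63% and 0.891%. In glia, 1 of 7, Etv1, was higher and 0 were lower, against 6.18% and 4.80%. The median log2 ratio of the members was 0.03 in mesenchyme, 0.02 in progenitors, 0.08 in neurons and 0.25 in glia, beside 0.02, -0.01, 0.01 and 0.03 over all genes compared. Glia were the smallest class, with 262 control and 202 mutant cells, and were not divided further. Their Etv1 was at 16.8 and 35.5 CPM (86 and 117 UMIs), a ratio of 1.08 (0.67 to 1.5), and it was found in 3.85% and 13.4% of thinned glia (17.9% and 35.6% without thinning). Of the other glial members, Dusp6 was at 40.6 and 53.4 CPM, a ratio of 0.39 (0.10 to 0.69), Spred2 at 20.7 and 14.6 CPM, a ratio of -0.51 (-1.03 to -0.0028), and Spry1 had 8 and 25 UMIs.

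**Figure D2:**
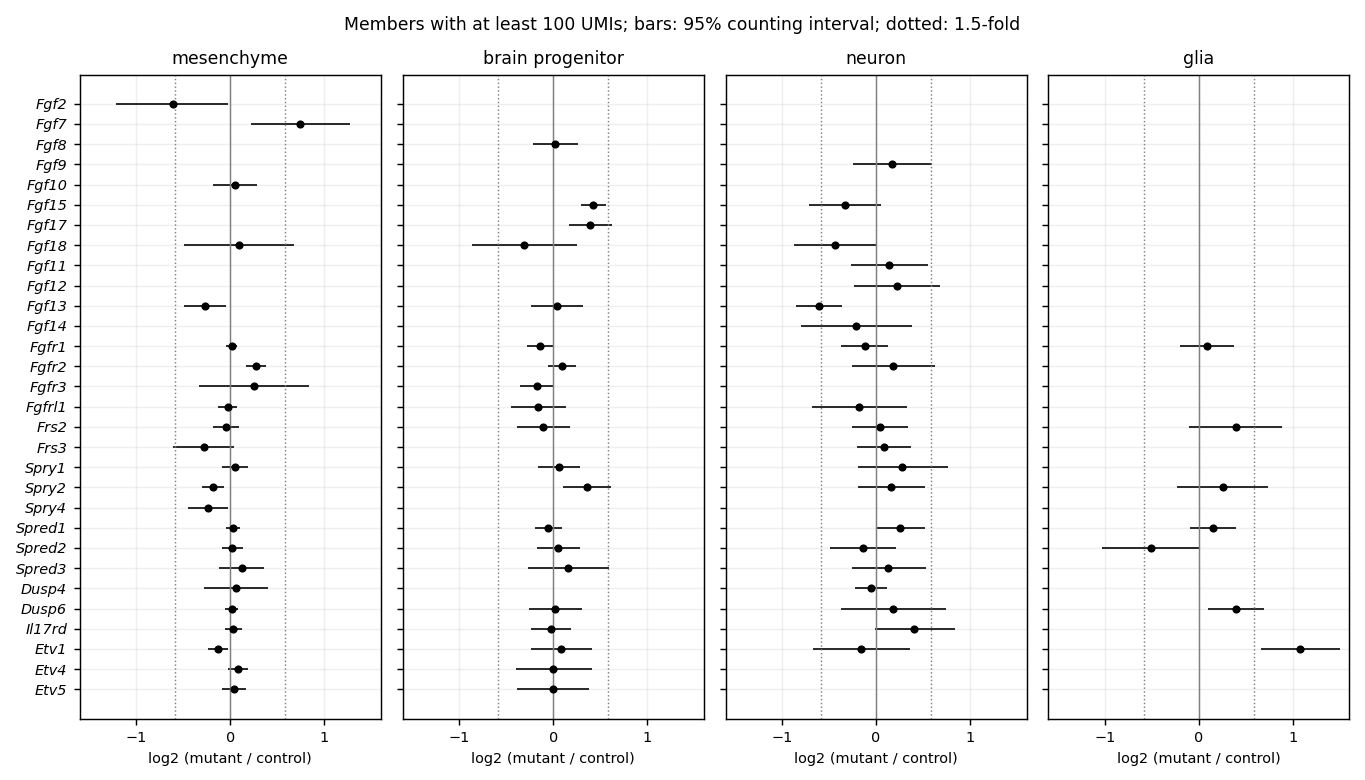
Log2 ratio of mutant over control CPM for each member with at least 100 UMIs in a class (points), with its 95% counting interval (bars) and the 1.5-fold limits (dotted lines). Most members sit near 0, and Etv1 in glia at 1.08 is farthest from it.

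Because TFAP2 proteins bind the palindrome GCCNNNGGC, the 250 bases before each annotated start were searched for it. RefSeq promoters (GRCm38.p6) were matched for 26 members, and those of Fgf1, Fgf8, Fgf15, Fgf17, Fgf20, Fgfr1, Spry4, Dusp4 and Etv4 were not used. The palindrome was found in 7 of the 35 promoters of these members, which belong to 6 genes, and in 13.7% of all 32851 promoters of the same length, and the ETS site CCGGAAGT, searched on both strands, in 2 of 35 and in 2.88%. These matches are descriptions of letters, not of binding. Those of Dusp6 and Etv5 are shown because their mutant to control ratios differed between mesenchyme regions, as described further on, and that of Spry2 because it held the most matches, with the palindromes in capitals. The Dusp6 promoter, on the plus strand at chr10:99262981-99263230, holds no match. Spry2 and Etv5 lie on the minus strand at chr14:105896820-105897069 and chr16:22439571-22439820, and Etv5 has a further start whose window holds no match.
Dusp6: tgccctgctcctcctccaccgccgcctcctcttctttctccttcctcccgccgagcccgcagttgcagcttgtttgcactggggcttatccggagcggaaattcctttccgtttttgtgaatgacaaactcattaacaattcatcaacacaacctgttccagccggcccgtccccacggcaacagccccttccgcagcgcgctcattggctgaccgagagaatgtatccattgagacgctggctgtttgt
Spry2: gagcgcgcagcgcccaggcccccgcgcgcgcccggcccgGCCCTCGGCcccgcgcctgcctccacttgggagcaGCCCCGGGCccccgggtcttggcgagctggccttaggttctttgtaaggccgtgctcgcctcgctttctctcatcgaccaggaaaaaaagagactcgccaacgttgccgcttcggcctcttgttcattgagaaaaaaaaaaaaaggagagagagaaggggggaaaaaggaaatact
Etv5: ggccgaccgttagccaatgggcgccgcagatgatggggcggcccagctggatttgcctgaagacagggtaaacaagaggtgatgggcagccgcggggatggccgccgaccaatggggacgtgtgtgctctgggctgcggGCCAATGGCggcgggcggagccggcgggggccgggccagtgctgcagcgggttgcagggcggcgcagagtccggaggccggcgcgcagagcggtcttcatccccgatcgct

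Next, the mesenchyme was divided into 5 regions, formed without any FGF gene. Frontonasal-like cells, led by Pax7 and Pax3, numbered 963 in control and 543 in mutant, mandibular-like cells, led by Hand2, 831 and 432, periocular-like cells, led by Zic1, 605 and 557, and maxillary-like cells, led by Lhx6, 636 and 494. In this order, the names rest on 9 of 11, 6 of 11, 10 of 10 and 8 of 11 listed markers, so mandibular-like is the weakest. A further cluster whose leading genes include Hoxa2 and Emx2 held 678 and 702 cells and stayed without a name. Dlx3, which is on the mandibular list, was also among the leading genes of this unnamed cluster. In both libraries the 7 feedback readouts were highest in maxillary-like cells, with 314 control and 300 mutant CPM, and lowest in the Hoxa2 cluster, with 111 and 138 CPM. Frontonasal-like cells followed with 270 and 231 CPM, periocular-like cells with 177 and 200 CPM and mandibular-like cells with 149 and 199 CPM.

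Individual readouts differed in their order of regions. Dusp6 was at 129 control and 122 mutant CPM in maxillary-like cells, 73.3 and 53.6 CPM in frontonasal-like cells, 64.1 and 70.9 CPM in periocular-like cells, 34.2 and 55.5 CPM in mandibular-like cells, and 29.3 and 37.8 CPM in the Hoxa2 cluster. After thinning it was found in 39.0% and 38.4% of maxillary-like cells, and in between 12.6% and 23.0% of the cells of each other region. Etv4 was highest in frontonasal-like cells, at 47.5 and 45.1 CPM, and at 5.33 and 8.78 CPM in the Hoxa2 cluster. Spry4 ranged from 15.1 and 10.6 CPM in frontonasal-like cells (235 and 89 UMIs) down to 12 and 21 UMIs in the Hoxa2 cluster. Il17rd, Spry1 and Spry2 were flatter, lying in every region between 29.6 and 53.2, 10.7 and 27.6, and 17.6 and 37.0 CPM. The ligand Fgf10 was also regional, at 12 and 11.2 CPM in maxillary-like and 8.85 and 8.51 CPM in mandibular-like cells, and at most 2.46 CPM in periocular-like cells and the Hoxa2 cluster. Fgfr2 ranged from 46.4 and 48.5 CPM in periocular-like down to 11.6 and 19.5 CPM in maxillary-like cells. Each other ligand stayed at or below 3.14 CPM in every region of both libraries, among them Fgf2 with 34 control and 4 mutant UMIs in frontonasal-like cells.

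**Figure D3:**
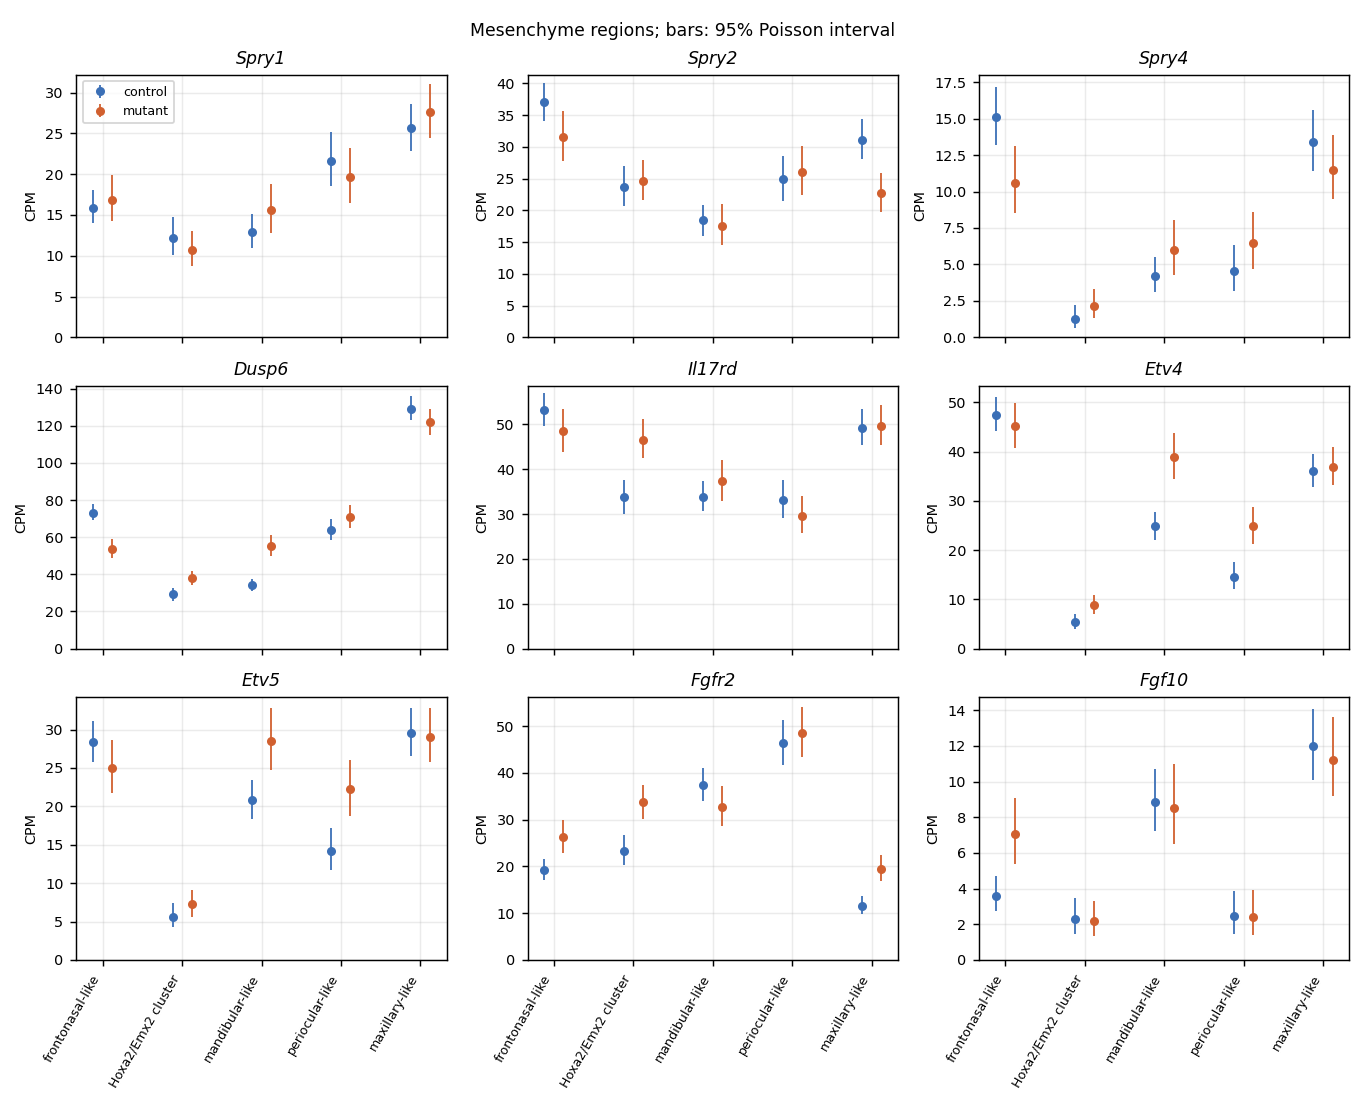
Level in CPM of 7 feedback readouts, Fgfr2 and Fgf10 in 5 mesenchyme regions (control blue, mutant orange; bars are 95% Poisson intervals). Dusp6 is highest in maxillary-like cells, at 129 and 122 CPM, and is lower in mutant than in control frontonasal-like cells but higher in mutant mandibular-like cells.

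Beneath the even totals of the mesenchyme, some members had ratios of opposite sign in different regions at this resolution. The 3898 control Dusp6 UMIs of the mesenchyme lay in 1431 of 3713 cells, and the intervals do not cover spread between cells. Within regions, a member with 100 UMIs was called where its log2 ratio was at least 0.32 in size and its interval left out 0. In frontonasal-like cells, Dusp6 went from 1139 control to 449 mutant UMIs, a log2 ratio of -0.45 (-0.61 to -0.29), and Spry4 from 235 to 89 UMIs, a ratio of -0.51 (-0.88 to -0.15). Fgf10 was higher there, at 3.6 and 7.04 CPM, a ratio of 0.97 (0.41 to 1.52), and was detected in 48 control and 46 mutant cells. Fgfr2 was higher too, with a ratio of 0.44 (0.19 to 0.70). These were 2 of 16 members higher and 2 lower, against 4.72% and 2.67% of all genes compared in that region. In mandibular-like cells, Dusp6, Etv4 and Etv5 were all higher in the mutant library, with ratios of 0.70 (0.49 to 0.90), 0.65 (0.41 to 0.89) and 0.46 (0.18 to 0.73). They were 3 of 16 members, beside 2.78% of all genes, and 1 member, Frs2, was lower, with a ratio of -0.35 (-0.70 to -0.01), beside 4.56%.

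The difference between both regions was larger than counting error for some readouts. As these regions had already been seen to differ, the intervals are a description and no separate support. The log2 ratio in mandibular-like cells exceeded that in frontonasal-like cells by 1.15 (0.89 to 1.40) for Dusp6, 1.01 (0.32 to 1.69) for Spry4, 0.72 (0.43 to 1.02) for Etv4 and 0.64 (0.29 to 1) for Etv5. For Spry1, Spry2 and Il17rd the excess was 0.19, 0.17 and 0.28, with intervals that held 0. The frontonasal-like ratio of Dusp6 was also below that of every other region. The excess was 0.82 (0.55 to 1.09) in the Hoxa2 cluster, 0.60 (0.36 to 0.83) in periocular-like and 0.37 (0.18 to 0.56) in maxillary-like cells. No replicate bears on these contrasts, and genotype, sex and embryo cannot be told apart in them. At the next higher resolution, the frontonasal-like value of Dusp6 shrank to -0.13, whereas the mandibular-like value was 0.61.

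In the Hoxa2 cluster, 5 of 15 members were higher and 1 lower, against 6.89% and 2.90% of all genes compared there. The 5 were Etv4 with 0.72 (0.20 to 1.2), Spred3 with 0.60 (0.04 to 1.17), Fgfr2 with 0.52 (0.27 to 0.78), Il17rd with 0.47 (0.26 to 0.68) and Dusp6 with 0.37 (0.14 to 0.60), and the lower one was Fgf13 with -0.57 (-1.12 to -0.04). Fgf5, a ligand of very low level, had 12 control UMIs and 0 mutant UMIs in this cluster. In periocular-like cells, Etv4 was at 14.6 and 24.8 CPM, a ratio of 0.76 (0.41 to 1.11), and Etv5 at 14.2 and 22.2 CPM, a ratio of 0.64 (0.28 to 1.01). They were 2 of 14 members, beside 8.34% of genes higher, and no member was lower, beside 3.84%. At the higher resolution, which draws 854 control and 660 mutant cells into the periocular-like cluster, these ratios were 0.02 and 0.22. In maxillary-like cells, Fgfr2 was higher with a ratio of 0.75 (0.42 to 1.07), and Fgf13 and Spry2 were lower, with -0.58 (-1 to -0.17) and -0.46 (-0.70 to -0.21), which is 1 higher and 2 lower of 17, against 3.91% and 2.19%. Fgfr2 was thus higher in the mutant library in 3 regions called, at 0.07 in periocular-like cells and at -0.19 (-0.42 to 0.04) in mandibular-like cells. The median of the members compared was -0.06 in frontonasal-like, 0.15 in mandibular-like, 0.11 in Hoxa2, 0.06 in periocular-like and -0.02 in maxillary-like cells, beside medians of all genes between -0.02 and 0.03.

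Fgf8 and Fgf17 were higher than in any other region in a group of brain progenitors with most of the listed markers of the isthmus. At the resolution fixed for the progenitors these cells did not form a cluster of their own, and 199 of 236 control and 268 of 380 mutant Fgf8 UMIs lay in the hindbrain-like cluster. They separated at the next higher resolution, an alternative setting that was chosen for their description after the clusters had been seen. That cluster was named from 7 of 10 isthmic markers, among them Pax5, En1 and Sp8, and held 193 control and 327 mutant cells, 25.9% and 27.2% of the progenitors. Its 10 leading genes included these markers but also Helt, Nkx6-2 and Nkx6-1, which are not on the isthmic list. No FGF gene took part in forming it. Fgf8 (chromosome 19, 45736798 to 45742915) was at 95.3 control and 77.8 mutant CPM in isthmic-like cells, compared with 3.17 and 8.22 CPM in all other progenitors. Fgf17 (chromosome 14, 70636203 to 70642268) was at 91.3 and 108 CPM, compared with 4.32 and 8.03 CPM, and Fgf18 at 17.8 and 12 CPM, compared with 1.44 and 1.75 CPM. Thinned isthmic-like cells held an Fgf8 UMI in 11.2% (control) and 10.4% (mutant) of cases, compared with 0.0819% and 0.150% of mesenchyme cells (15% and 13.5%, compared with 0.135% and 0.257%, without thinning).

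The feedback genes stood high in the same cells. Spry1 was at 84.2 control and 79.7 mutant CPM against 11.7 and 13.8 CPM in other progenitors, a log2 excess of 2.85 (2.47 to 3.25) and 2.53 (2.25 to 2.83). Il17rd was at 93.1 and 87.5 CPM against 14.8 and 14.8 CPM, an excess of 2.65 and 2.57. Spry2 exceeded the other progenitors by 2.21 and 1.81, Dusp6 by 2.26 and 1.48, Etv4 by 1.66 and 1.6, and Etv5 by 1.72 and 2.16, where both were under 100 UMIs in control. Spred1, at 111 and 108 CPM, exceeded them by 0.93 and 0.96. Summed, the 7 readouts reached 321 control and 309 mutant CPM in isthmic-like cells, a level near that of maxillary-like mesenchyme, whereas midbrain-like progenitors had 36.7 and 49.5 CPM and hindbrain-like progenitors 61.6 and 70.1 CPM. The receptors differed among themselves. Fgfrl1 was higher than in other progenitors, by 0.69 (0.21 to 1.16) and 0.67 (0.27 to 1.06), the excess of Fgfr1 was 0.0042 and 0.12 with intervals that held 0, and Fgfr2 was lower, by -0.73 (-1.06 to -0.42) and -0.72 (-0.96 to -0.48). In the control library 11 of 16 members were 1.5-fold or more higher in isthmic-like cells and 1 was lower, against 3.79% and 4.14% of all genes. In the mutant library these were 11 and 1 of 19, against 3.81% and 4.71%. The limit of 100 UMIs was applied to isthmic-like and other progenitors together, so some members passed it only through the cluster where they are high. Fgf8, for example, had 214 control UMIs in isthmic-like cells and 22 in the others, and Fgf17 had 205 and 30. These counts are therefore a description and no separate support.

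**Figure D4:**
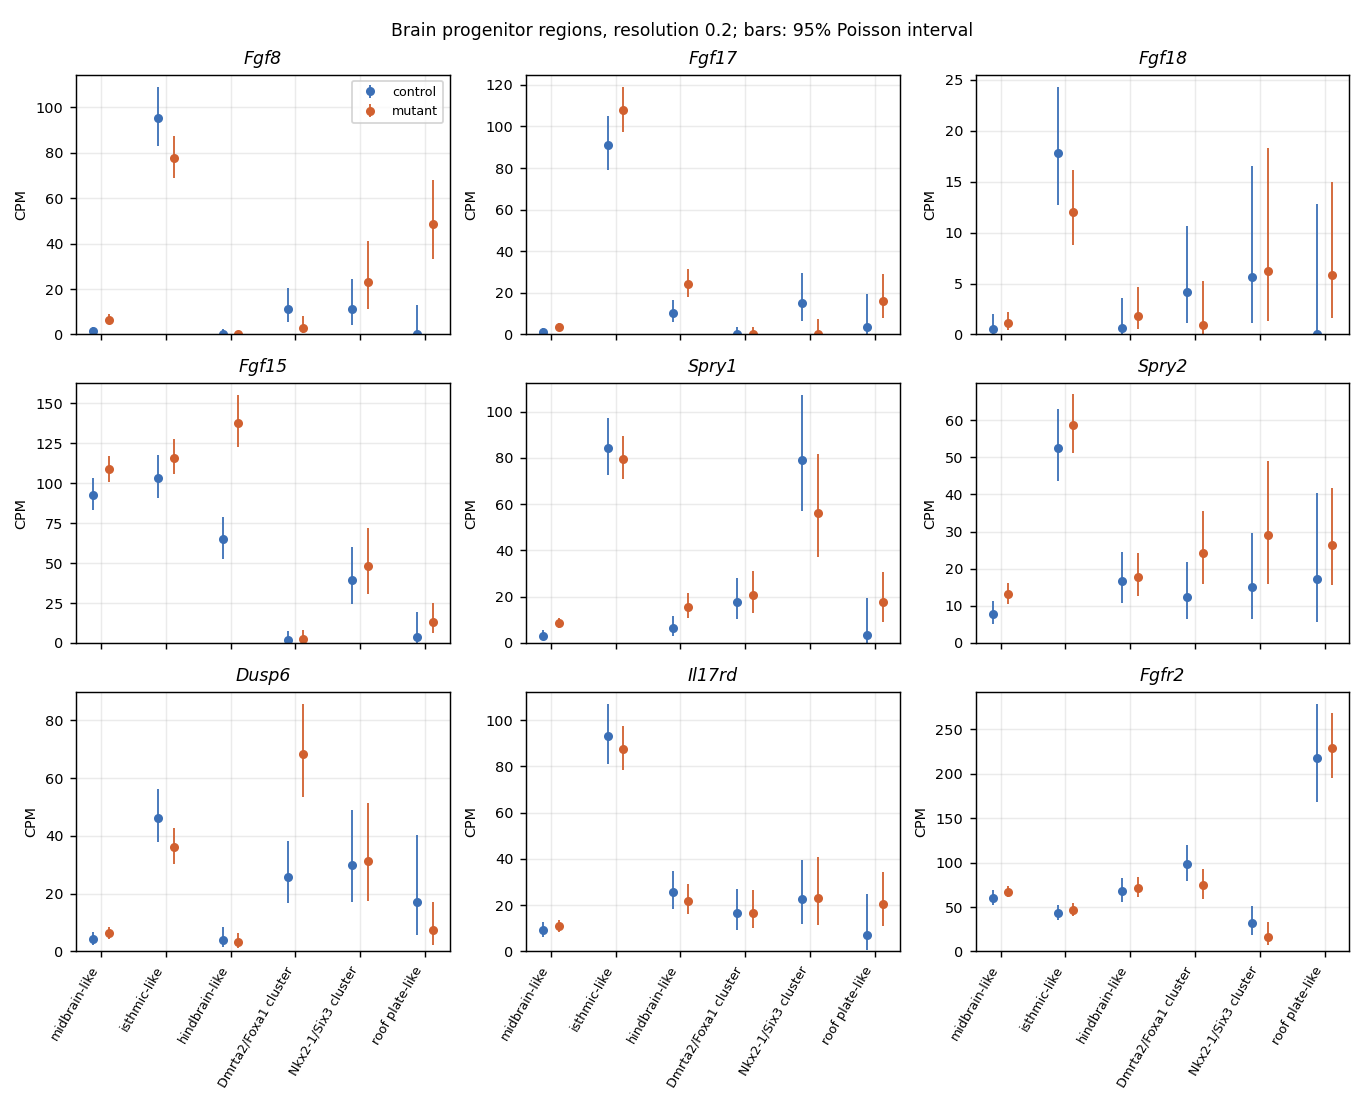
Level in CPM of 4 ligands, 4 feedback genes and Fgfr2 in 6 brain progenitor clusters at the higher resolution (control blue, mutant orange; bars are 95% Poisson intervals). Fgf8, Fgf17, Spry1 and Il17rd are highest in isthmic-like cells in both libraries, except that control Spry1 in the Nkx2-1/Six3 cluster, at 79.0 CPM, comes close.

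Between genotypes, no member of the isthmic-like cells met the rule for a call. Of the 18 members with 100 UMIs, 0 were called higher and 0 lower, against 2.70% and 3.01% of all genes compared, and their median log2 ratio was -0.05, beside -0.01 over all genes. Fgf8 had 214 control and 291 mutant UMIs and a ratio of -0.29 (-0.55 to -0.03), Fgf17 0.24 (-0.01 to 0.49), Fgf15 0.17 (-0.06 to 0.41), Spry1 -0.08 (-0.35 to 0.19), Spry2 0.16 (-0.17 to 0.49), Dusp6 -0.36 (-0.74 to 0.02), Il17rd -0.09 (-0.35 to 0.17), Etv4 -0.05 (-0.62 to 0.53) and Etv5 0.16 (-0.36 to 0.69). Of these intervals only that of Fgf8 left out 0. Ligand transcripts were concentrated in few cells, which the counting intervals do not cover: 10 cells held 78.0% of the control and 54.3% of the mutant Fgf8 UMIs, and 1 control cell held 48 of the 214. For Spry1 the 10 richest cells held 31.7% and 21.8%. In the hindbrain-like cluster of the fixed resolution, with 252 control and 349 mutant cells, Fgf15, Fgf17 and Spry1 were higher in the mutant library, with 0.74 (0.50 to 0.99), 0.42 (0.18 to 0.67) and 0.39 (0.10 to 0.69), and Fgfr3 was lower with -0.46 (-0.78 to -0.13). They were 3 and 1 of 17 members, against 3.06% and 2.98% of genes.

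Within the isthmic-like cluster, cells with a ligand transcript had a higher summed feedback level than cells without one. After each isthmic-like cell was thinned to 5000 UMIs, Fgf8 or Fgf17 was detected in 35 of 188 control and 65 of 318 mutant cells. In these cells the 7 readouts summed to 943 (804 to 1100) CPM in control and 763 (671 to 864) CPM in mutant. In the isthmic-like cells without such a UMI they summed to 144 (118 to 173) and 183 (161 to 209) CPM. For Dusp6 the levels were 166 and 18.3 CPM in control cells with and without a ligand UMI, and 108 and 14.2 CPM in mutant cells. For Spry1 they were 246 and 32.7 CPM in control, and 172 and 46.6 CPM in mutant cells. Il17rd was at 257 and 43.1 CPM in control and at 255 and 54.5 CPM in mutant cells, and Spry4 had at most 7 UMIs in any of these groups. Split by Fgf8 alone, the sums with and without a UMI were 867 and 220 CPM in control and 794 and 245 CPM in mutant cells. Not every readout followed, as Etv4 was at 19.0 and 16.8 CPM in control and Etv5 at 30.3 and 25.3 CPM in mutant cells. Cells of 1 library are not replicates, so these values are a description.

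**Figure D5:**
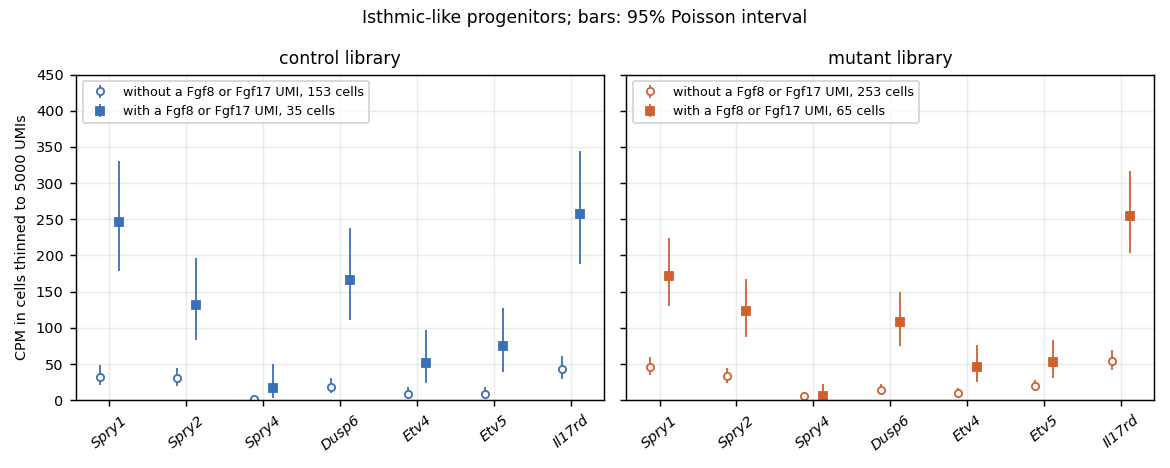
Level in CPM of 7 feedback readouts in isthmic-like cells with (filled) and without (open) an Fgf8 or Fgf17 UMI after thinning to 5000 UMIs, in the control and mutant library (bars are 95% Poisson intervals). Dusp6 is at 166 against 18.3 CPM in control and at 108 against 14.2 CPM in mutant cells.

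Outside the isthmic-like cluster, the progenitor regions differed in ligand and feedback level. Fgf15 was spread over midbrain-like cells, a name that rests on 5 of 9 markers, with 92.8 control and 109 mutant CPM, and hindbrain-like cells, with 64.8 and 138 CPM, a log2 ratio of 1.09 (0.76 to 1.43) in the latter. In the same hindbrain-like cells Fgf17 had 16 and 53 UMIs, in 3 of 131 control and 11 of 180 mutant cells, and Spry1 had 10 and 34 UMIs. Fgf8 was at 0 in hindbrain-like cells of both libraries. In midbrain-like cells Fgf8 was at 1.39 and 6.56 CPM, with 42 mutant UMIs in 4 cells. In roof plate-like cells it had 0 UMIs in 23 control cells and 33 UMIs in 49 mutant cells, all in 3 of them. The name roof plate-like rests on 9 of 10 markers. Of the 10 leading genes of that cluster only Ttr is on the roof plate list, and the others include Colec12, Dynlrb2 and Ccno. At the fixed resolution, 1 of 16 members was called in midbrain-like cells, Spry2, at 11.1 and 17 CPM with a ratio of 0.61 (0.14 to 1.10), and 0 were lower, against 2.35% and 3.47% of genes.

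The small clusters had marked members but few UMIs. The Nkx2-1 cluster, with 40 control and 39 mutant cells, held most of the Fgf10 of the progenitors, at 30.1 and 16.7 CPM (16 and 8 UMIs in 3 and 5 cells), and Spry1 at 79.0 and 56.2 CPM. Roof plate-like cells had the highest Fgfr2 of any group, with 218 (168 to 279) and 229 (195 to 268) CPM. In the cluster whose leading genes include Foxa1 and Shh, Dusp6 was at 25.9 and 68.3 CPM, with 25 UMIs in 14 of 88 control cells and 73 UMIs in 33 of 106 mutant cells, a ratio of 1.40 (0.72 to 2.11) from a total just under the limit of 100 UMIs.

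The 68 other genes of the FGF pathway, from RAS-ERK components to heparan sulfate enzymes and glypicans, all had a row. In mesenchyme 56 were compared and 0 reached 1.5-fold in either direction, against 2.62% and 1.02% of all genes, with a median log2 ratio of 0.03. The values farthest from 0 were Gpc4, a glypican, with 0.54, Sulf1, a heparan sulfate sulfatase, with 0.49, and Myc with -0.42. In progenitors 0 of 52 reached 1.5-fold in either direction, against 131 higher (about 1.3%) and 95 lower (0.908%) of 10460 genes. In neurons 1 of 51 did, the sulfotransferase Hs6st2 with 0.82 (0.24 to 1.44), against 1.63% of genes higher and 0.891% lower. In glia 6 of 49 were higher and 3 lower, against 6.18% and 4.80% of all genes, among them Gpc4 with 1.72 (1.11 to 2.35), Flrt1 with -1.75 (-2.29 to -1.25) and Mycn with -1.29 (-1.56 to -1.02). Markers of epithelium, a main source of facial FGF ligands, summed to 8.72 and 9.50 CPM over 11 genes in mesenchyme (498 and 396 UMIs). Of these genes, 10 in control and 9 in mutant had a UMI. Krt5 was at 0 in both libraries and Krt15 also in the mutant. Endothelial markers summed to 19.8 and 22.3 CPM in mesenchyme, and their part in the ligand levels was not tested. Of 10 genes of dissociation stress, some of which share ERK input with the readouts, 6 were compared in mesenchyme, with a median ratio of 0.11. In glia 3 were compared, with a median ratio of -0.06. Jun was at 128 and 240 CPM there, whereas Egr1 and Ier2 had ratios of -0.15 and -0.06 with intervals that held 0. The part of the stress genes in the glial values was not tested.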

How the data were processed

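Per the authors' methods, GFP-positive cells of E11.5 heads were captured with 10x Chromium, and Cell Ranger (6.0.0 in the file headers) aligned reads to mm10. The deposited values are raw UMI counts per gene and barcode, which the authors did not normalize. The strand setting of the counting is not given in the sources used here. Barcodes were kept with 200 to 7500 detected genes and at most 10% mitochondrial UMIs, which left out 523 control and 476 mutant barcodes. Libraries were integrated and clustered with Seurat 5.3.0 in R 4.3.3 (2000 variable genes, 30 dimensions, resolution 0.05) without FGF pathway genes, Tfap2a, Tfap2b, genes named in the study, Xist, Tsix or Y-linked genes. Clusters with markers of a further class were set aside, and mesenchyme, progenitors and neurons were clustered again in 20 dimensions at the lowest resolution giving at least 5 clusters (0.2, 0.1 and 0.1). The region name is the list of fixed markers with the highest mean log2 ratio above 0, with at least 3 markers higher and detected and no other list better represented among the 10 leading genes. This rule, the splitting and the use of resolution 0.2 for isthmic-like cells were settled after clusters had been seen.

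UMIs were summed per library and group. Sums have exact Poisson intervals, ratios exact conditional binomial intervals and shares exact Clopper-Pearson intervals, and a difference of ratios a normal interval on the log scale, all at 95% and for counting error only. A count of 0 was set to a floor of 3 counts per library. With 1 library per group, no p-value was computed. The ratio and its interval were tested on simulated Poisson counts. These hold no spread between cells or embryos, so the simulation checks the calculation alone. All 35 members are described by role. Members with 100 UMIs in a class are given with values, and in regions those called, the ligands and the 7 readouts. The members and lists were chosen with earlier results of these data known. Alternatives were TMM scaling (edgeR 4.0.16), equal weight per cell, thinning, Scrublet doublets removed (scanpy 1.11.5, 93 control and 171 mutant barcodes), a mitochondrial limit of 5%, 30 UMIs, a log2 limit of 0.32, equal cluster shares, no integration and a higher resolution. Doublets were otherwise kept.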

Additional observations from a re-analysis of the deposited data

How the results depend on the processing

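No paired analysis was possible because each group is 1 library. Counts of members called moved with the limits, whereas TMM scaling left all 12 class counts and medians near their values. The counts below have no share over all genes under the same altered setting beside them. They therefore cannot be read as more or fewer than for other genes. In mesenchyme (1 higher, 1 lower), thinning gave 0 and 0, under 5% mitochondrial UMIs 0 and 0, and a minimum of 30 UMIs 4 and 2. In brain progenitors (0 and 0), 1 was lower with 30 UMIs and 3 were higher at a log2 limit of 0.32 with an interval that leaves out 0. In neurons (0 and 1), 1 was higher with equal weight per cell, and 2 were lower without doublets, 2 with 30 UMIs and 0 with equal cluster shares. In glia (1 and 0), thinning gave 0 higher, 30 UMIs 3 and 1, that limit 2 and 1, and under 5% mitochondrial UMIs 1 lower. The log2 ratio of Etv1 in thinned glia was 2.00, with fewer UMIs than the limit. Without integration, frontonasal-like cells had 4 lower (2), mandibular-like cells 0 lower (1) and the Foxa1 cluster 1 higher and 1 lower (0 and 0). At the higher resolution, frontonasal-like cells had 1 and 1 (2 and 2), the Hoxa2 cluster 2 and 0 (5 and 1), mandibular-like cells 0 lower, also without doublets, periocular-like cells 1 and 2 (2 and 0), and hindbrain-like cells 1 higher (3). The cause was not tested.

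Without thinning, the share of cells with a UMI was 5.51% for Fgf8 in control progenitors, 18.4% and 18.6% for Spry1, 38.5% and 39.4% for Dusp6, 75.9% and 75.5% for Fgfr1 and 26.9% and 30.7% for Fgfr2 in mesenchyme, and 13.8% and 10.6% for Fgf13 in neurons, all higher than with it, where for example Fgf8 was at 3.68% and Dusp6 at 21.0% and 21.7%. No result reversed its direction past a limit. Keeping the mixed barcodes, chosen after seeing the data, moved none of the 12 class counts and medians.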
